A study of Homo sapiens with 7 samples.

Results

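The genes described here encode the proteins of the nuclear pore complex and the soluble receptors that carry cargo through it. They were chosen by symbol: names that begin with NUP, KPNA, KPNB, IPO or XPO and a number, together with SEH1L, NDC1, TPR, AAAS, RANBP2 and the transportins TNPO1, TNPO2 and TNPO3, without the NUPR genes. Of 19978 genes in the table, 51 met this rule, and 49 of them were among the 14863 genes with enough counts to be tested. NUP210L, with at most 2 counts in a sample, and KPNA7, with at most 1, were not tested. RNA was sequenced from HEK-293, an established line derived from human embryonic kidney, after 48 h in 3 conditions. Control cells (2 samples) were kept at pH 7.4 and acidosis cells (3 samples) at pH 6.6, both with DMSO as the vehicle. The third group (2 samples) received 10 µM SRPIN340, an inhibitor of the kinases that phosphorylate SR-rich splicing factors, at pH 7.4. The titles of these samples name SRPIN340, while the treatment protocol in their labels reads SRPIN 350. Per the study's methods, DMSO was at 0.2% throughout and the samples of a group were biological repeats, so every result concerns 1 cell line.

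Library totals lay between 13615816 and 24110460 estimated counts, with the acidosis samples between 13615816 and 21370143. Levels are in CPM, counts per 1000000 counts of the library after the scaling described below. Transcripts known from HEK-293 cells were present, such as NEFL at 111 and 92.5 and PAX2 at 7.06 and 6.49 CPM in the control samples. PTPRC, ALB, PECAM1 and COL1A2, markers of leukocytes, hepatocytes, endothelium and fibroblasts, stayed under 1 CPM in all 7 samples.

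The nuclear pore complex spans the nuclear envelope as stacked rings of nucleoporins. An outer ring on each face, built from the Y complex, and an inner ring form the scaffold, membrane nucleoporins anchor it, and nucleoporins with phenylalanine-glycine repeats fill the central channel. Filaments on the cytoplasmic face serve the last step of mRNA export, and a basket reaches into the nucleoplasm. Import receptors bind cargo in the cytoplasm and let go of it when they meet Ran in its GTP-bound form in the nucleus, whereas exportins bind cargo together with that form of Ran. Importin alpha is an adaptor that links proteins with a classical nuclear localization signal to importin beta, and TNPO3, also called transportin-SR, imports SR-rich splicing factors.

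All levels above and below are CPM of libraries scaled by the trimmed mean of M values (TMM). TMM gives each library a factor computed on the assumption that most genes do not change. This factor lay between 1.17 and 1.21 in the 4 samples at pH 7.4, and between 0.782 and 0.800 in acidosis. Scaling by library total alone moved the median of the 49 members in acidosis from -0.08 to -0.65 on the log2 scale, and the median over all tested genes from -0.05 to -0.63. Values scaled in this way are given below as "by total count only". Fold changes in acidosis are therefore relative to the typical gene. In these bulk samples a smaller number of cells making a transcript and less of it per cell cannot be told apart.

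Acidosis against control asks which transcripts differ after prolonged culture at low pH, and here the members split in both directions. At an adjusted p under 0.05, 18 of 49 members (36.7%) were higher and 20 (40.8%) were lower, beside 32.5% and 34.2% of all tested genes. Changes of over 1 on the log2 scale, referred to below as calls, were found in 6 members that rose (12.2%, beside 14.4% of all tested genes) and 9 that fell (18.4%, beside 19.1%). With TMM, members were thus changed about as often as other genes, and their median absolute log2 fold change was 0.62, beside 0.74 over all tested genes. The split differed with scaling: by total count only, 7 members were higher (14.3%, beside 16.2% of all tested genes) and 34 lower (69.4%, beside 55%), with 2 calls that rose (4.08%, beside 5.48%) and 18 that fell (36.7%, beside 35%). Among 27 nucleoporins 7 were higher and 15 lower, and among 22 transport receptors 11 were higher and 5 lower. By total count only, these were 1 and 21 of the nucleoporins and 6 and 13 of the receptors. The members have long transcripts, with a median of 5208 bases and 23 exons in the canonical transcript beside 3388 bases and 9 exons over all tested genes.

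**Figure D1:**
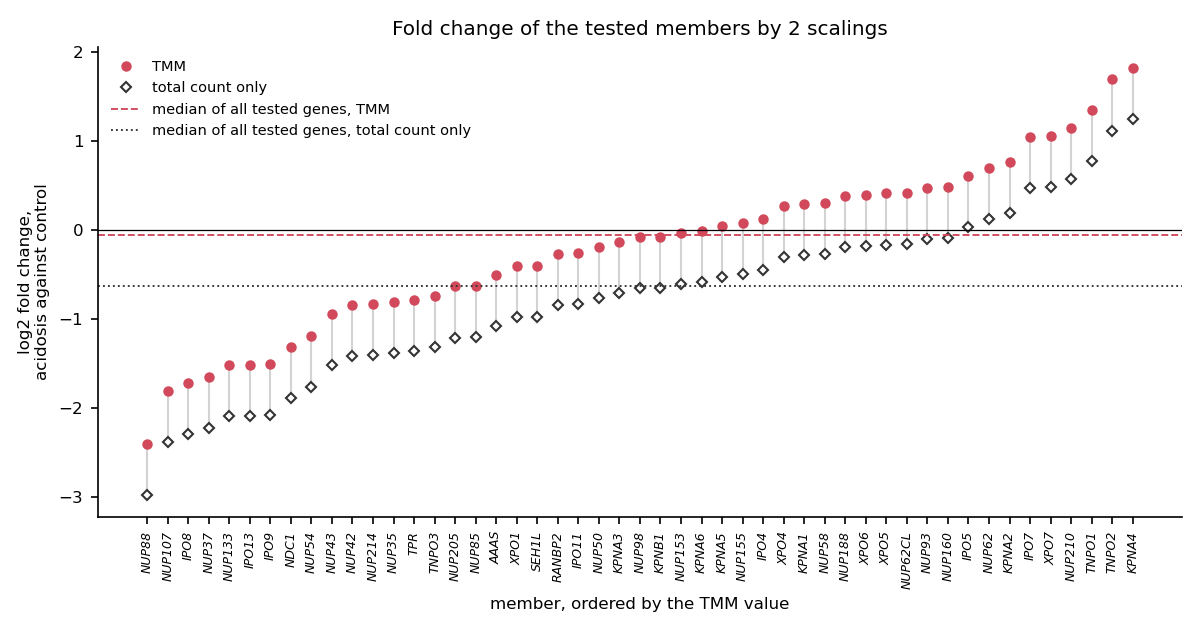
Log2 fold change in acidosis against control for the 49 tested members, ordered by value. Filled circles are TMM-scaled and open diamonds are scaled by total count only, and the dashed and dotted lines mark the medians of all tested genes, -0.05 and -0.63. Every member moved down by total count, and 12 members changed sign.

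The starts of 5 members are shown to let their sequence be read beside their values. NUP88 and NUP107 had the lowest fold changes in acidosis, and the 3 transportins moved apart, with TNPO3 lower and TNPO1 and TNPO2 higher. Each run is the 150 bases before the RefSeq transcription start, 5′ to 3′ on the gene's own strand, in GRCh38.p14. They lie at chr17:5419663-5419812 (NUP88, minus strand), chr12:68686828-68686977 (NUP107, plus strand), chr7:129055112-129055261 (TNPO3, minus strand), chr5:72816511-72816660 (TNPO1, plus strand) and chr19:12723933-12724082 (TNPO2, minus strand). Capitals mark exact matches, on either strand, to 6 motifs, none of which contains another. They are CCAAT, to which the factor NF-Y binds, GGGCGG, known as the GC box, CCGGAAG, which ETS factors bind, CACGTG, known as an E-box, TTCCCGC, which E2F factors bind, and TATAAA, known as the TATA box.
NUP88: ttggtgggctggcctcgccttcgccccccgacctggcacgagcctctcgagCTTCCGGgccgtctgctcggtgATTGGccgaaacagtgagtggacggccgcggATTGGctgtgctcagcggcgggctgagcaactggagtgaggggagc
NUP107: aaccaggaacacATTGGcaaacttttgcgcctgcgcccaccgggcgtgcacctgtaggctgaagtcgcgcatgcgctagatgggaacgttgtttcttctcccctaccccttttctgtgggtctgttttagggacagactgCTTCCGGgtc
TNPO3: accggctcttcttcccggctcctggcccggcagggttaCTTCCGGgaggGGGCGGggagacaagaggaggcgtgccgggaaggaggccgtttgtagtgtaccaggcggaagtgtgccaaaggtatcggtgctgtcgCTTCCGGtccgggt
TNPO1: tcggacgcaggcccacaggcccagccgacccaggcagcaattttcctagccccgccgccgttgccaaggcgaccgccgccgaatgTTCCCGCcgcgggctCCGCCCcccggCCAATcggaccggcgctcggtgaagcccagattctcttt
TNPO2: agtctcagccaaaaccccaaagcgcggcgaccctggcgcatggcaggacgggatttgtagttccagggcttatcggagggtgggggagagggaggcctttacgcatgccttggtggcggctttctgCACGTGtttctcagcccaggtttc
NUP88 and NUP107 each hold CCGGAAG on the opposite strand, written CTTCCGG, 99 to 93 and 10 to 4 bases before the start, and TNPO3 holds it at 112 to 106 and at 14 to 8 bases before the start. NUP88 also holds CCAAT on the opposite strand, written ATTGG, 77 to 73 and 46 to 42 bases before the start. NUP107 holds it at 138 to 134, and TNPO3 holds the GC box at 101 to 96. The TNPO1 window holds TTCCCGC, the GC box and CCAAT, and TNPO2 holds CACGTG. Over the 250 bases before each start, RefSeq entries matched 44 of the 49 tested members with 55 windows, since some genes have more than 1 start. NUP43, KPNA4, XPO7, KPNB1 and KPNA5 had no entry. CCGGAAG was present in 12 of 55 windows (21.8%), beside 12.8% of 17368 windows of all tested genes. It was in 8 of 21 windows of members lower in acidosis (NUP35, NUP37, NUP54, NUP88, NUP107, NUP214, SEH1L and TNPO3) and in 2 of 22 windows of members higher in acidosis (NUP58 and NUP160). CCAAT was in 43.6% of member windows beside 32.7%, CACGTG in 12.7% beside 7.96%, TTCCCGC in 10.9% beside 7.85%, TATAAA in 7.27% beside 6.54% and the GC box in 50.9% beside 61.5%. In windows of members lower and higher in acidosis, CCAAT was in 11 of 21 and 10 of 22, and the GC box in 9 and 14. CACGTG was in 1 and 3, TTCCCGC in 0 and 4, and TATAAA in 0 and 1. No such split was made for all tested genes. These matches describe letters in a window and were not tested.

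In the outer ring 6 of 7 tested members fell in acidosis (NUP107, NUP37, NUP133, NUP43, NUP85 and SEH1L, from -1.80 to -0.40 on the log2 scale). This stands beside 34.2% of all tested genes lower with TMM. By total count only, 6 were lower too, beside 55% of all tested genes. The symbols leave out the Y complex subunit SEC13, which with TMM had 94.8 and 101 CPM in control and 157, 150 and 159 CPM in acidosis. Of the 6 nucleoporins that the symbols leave out, 4 passed as higher with TMM and 1 by total count only. NUP107, which joins the stem of the Y complex to NUP133, was at 115 and 119 CPM in control, 113 and 104 CPM with SRPIN340, and 34.1, 36.5 and 30.2 CPM in acidosis. Each acidosis sample was thus well below the lowest sample of the other groups, and the log2 fold change against control was -1.80 ± 0.09 (SE, adjusted p = 2.15e-07). NUP133, at the tip of the stem, had 244 and 199 CPM in control, 187 and 211 CPM with SRPIN340, and 75.1, 79.0 and 78.7 CPM in acidosis (-1.51 ± 0.10, adjusted p = 7.01e-07). NUP37, a propeller-shaped subunit bound to NUP160, had 34.0 and 31.4 CPM in control, 33.9 and 34.4 CPM with SRPIN340, and 8.85, 11.8 and 10.8 CPM in acidosis (-1.65 ± 0.14, adjusted p = 3.84e-06). For both, acidosis stood apart from the 2 groups at pH 7.4, which overlapped each other. The smaller decreases were in NUP43 (-0.94 ± 0.07), NUP85 (-0.62 ± 0.13) and SEH1L (-0.40 ± 0.08). NUP160, the large subunit to which NUP37 binds, went the other way: it was at 77.2 and 79.3 CPM in control, 71.6 and 76.5 CPM with SRPIN340, and 101, 129 and 98.2 CPM in acidosis. Its acidosis samples all lay above the others, by 0.48 ± 0.12 on the log2 scale with TMM (adjusted p = 0.00467), but the value was -0.09 by total count only (adjusted p = 0.531).

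**Figure D2:**
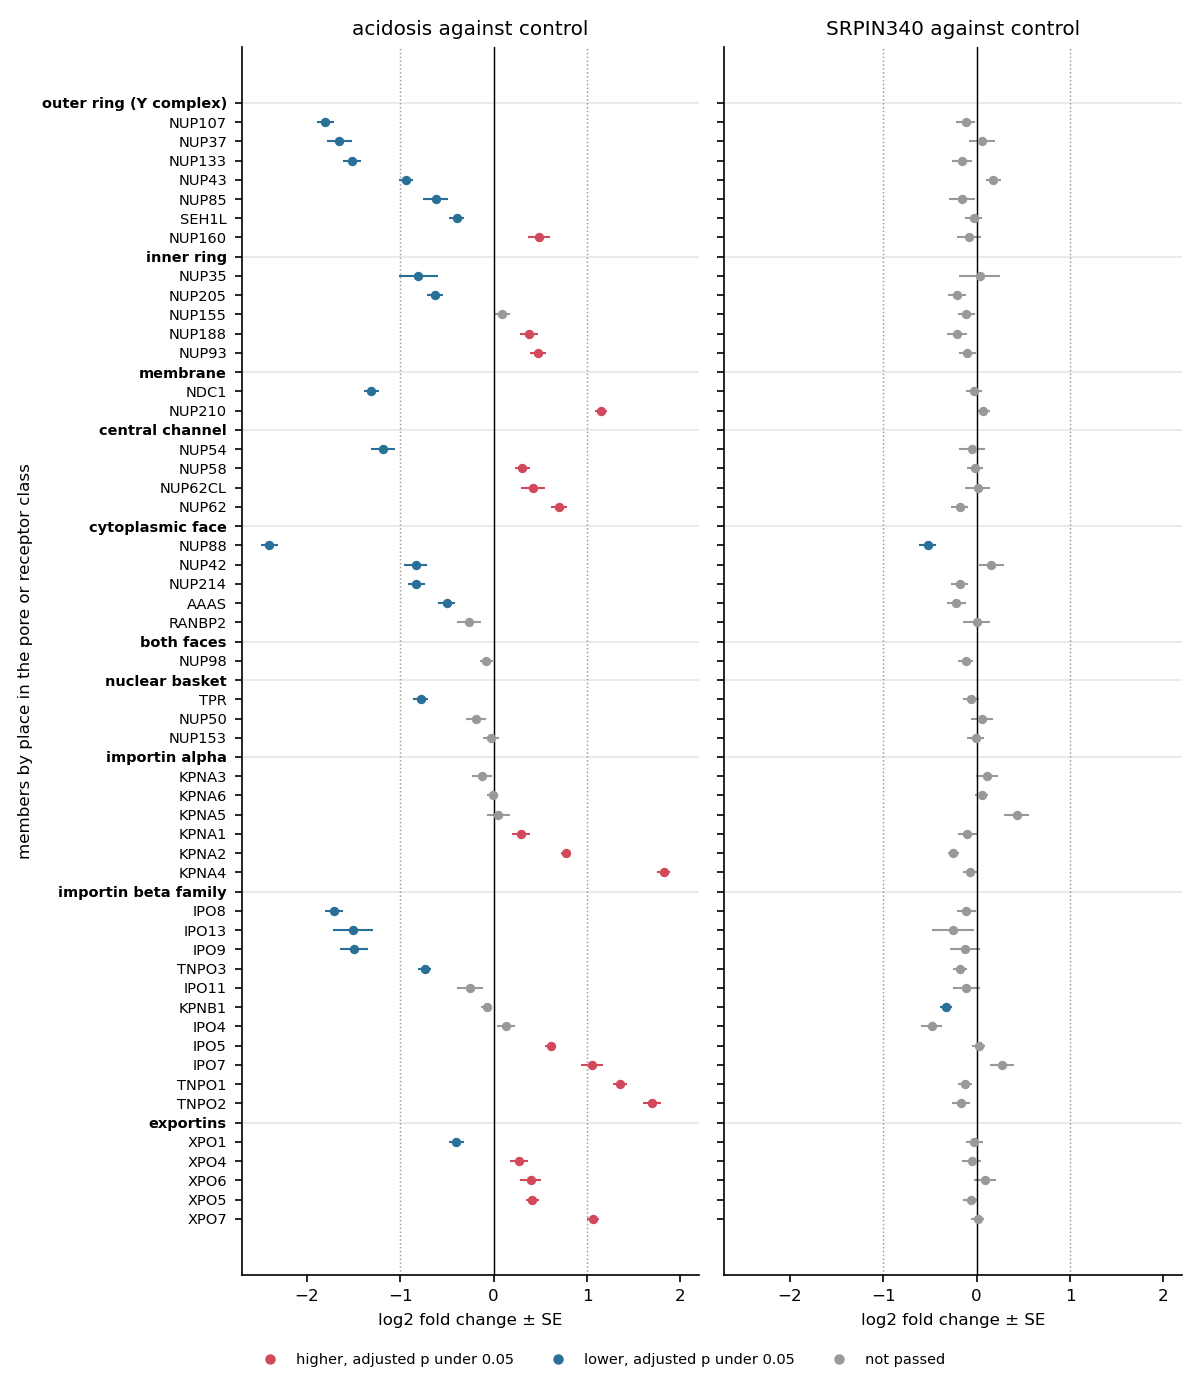
Log2 fold change ± SE of the 49 tested members, grouped by place in the pore or receptor class, for acidosis against control (left) and SRPIN340 against control (right). Red (higher) and blue (lower) points had an adjusted p under 0.05, and dotted lines mark 1 and -1. Members spread from -2.40 to 1.82 in acidosis, while all SRPIN340 values lay between -0.52 and 0.43.

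The inner ring and the membrane nucleoporins moved in both directions in acidosis. Of 5 inner ring members, NUP35 and NUP205 were lower (-0.81 ± 0.21 and -0.63 ± 0.09), whereas NUP93 and NUP188 were higher with TMM (0.48 ± 0.09 and 0.38 ± 0.10) and below 0 by total count only (-0.10 and -0.19). NUP155 was at 0.09 ± 0.08 and did not pass the test. NUP35, which binds membranes and NUP155, had 21.9 and 24.5 CPM in control, 19.6 and 27.9 CPM with SRPIN340, and 15.1, 9.82 and 14.5 CPM in acidosis (adjusted p = 0.0065). NUP93, the linker to which most inner ring proteins attach, had 81.3 and 90.8 CPM in control, 84.0 and 76.9 CPM with SRPIN340, and 123, 112 and 123 CPM in acidosis (adjusted p = 0.000864). In both genes the acidosis samples did not overlap the others, and the control samples lay within or near the range of the SRPIN340 samples.

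Of the membrane nucleoporins, NDC1 fell and NUP210 rose, each past the limit of a call. NDC1, a transmembrane anchor needed for pore assembly, had 138 and 129 CPM in control, 129 and 133 CPM with SRPIN340, and 55.6, 49.6 and 55.9 CPM in acidosis, a log2 fold change of -1.31 ± 0.08 (adjusted p = 5.91e-07). NUP210 (gp210), whose large domain lies in the lumen of the envelope, had 218 and 234 CPM in control, 246 and 229.5 CPM with SRPIN340, and 502, 481 and 523 CPM in acidosis, a log2 fold change of 1.15 ± 0.07 (adjusted p = 4.58e-07). The acidosis samples were thus lower than all others in the first gene and higher than all others in the second. NUP210 stayed above control by total count only (0.57, adjusted p = 3.1e-05).

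In the central channel, NUP54 fell while its partners in the same trimeric complex, NUP62 and NUP58, were higher with TMM. NUP54 had 48.3 and 48.8 CPM in control, 48.6 and 45.4 CPM with SRPIN340, and 19.2, 25.6 and 19.6 CPM in acidosis (-1.18 ± 0.13, adjusted p = 2.81e-05). NUP62 had 128 and 129 CPM in control, 119 and 108 CPM with SRPIN340, and 202, 228 and 197 CPM in acidosis (0.70 ± 0.08, adjusted p = 4.8e-05). No acidosis sample overlapped a sample of another group in either gene. NUP62 was at 0.13 and no longer passed by total count only (adjusted p = 0.22). NUP58 and the NUP62 relative NUP62CL were higher with TMM (0.30 ± 0.08 and 0.42 ± 0.12) and below 0 by total count only (-0.27 and -0.15), and neither passed without the second control sample (adjusted p = 0.0966 and 0.0996).

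On the cytoplasmic face 4 of 5 members fell in acidosis, beside 34.2% of all tested genes, and 5 by total count only, beside 55%. NUP88, which holds NUP214 at the export side of the pore, had the lowest fold change of all members: it was at 156 and 149.9 CPM in control, 105 and 107 CPM with SRPIN340, and 29.3, 25.9 and 31.5 CPM in acidosis. The 3 groups were fully separated, and the acidosis level was 0.189 of control (log2 fold change -2.40 ± 0.09, adjusted p = 3.35e-08). RABEP1, a gene on the opposite strand, covers 39.8% of the exonic bases of the canonical NUP88 transcript, and whether the counting used strand is not given in the sources used here. RABEP1 itself had 190.5 and 181 CPM in control and 155, 148 and 156 CPM in acidosis (-0.28 ± 0.06, adjusted p = 0.00335), and its part in the NUP88 values was not tested. NUP214, the FG-repeat partner of NUP88 and a docking site for the mRNA export helicase, was lower by less (-0.83 ± 0.09), as were NUP42, another regulator of that helicase (-0.83 ± 0.13), and AAAS, which NDC1 anchors (-0.50 ± 0.09). RANBP2, the large filament protein that binds Ran and carries SUMO ligase activity, had 335 and 289.8 CPM in control, 306 and 318 CPM with SRPIN340, and 243, 317 and 221 CPM in acidosis. Its groups overlapped and it did not pass (-0.26 ± 0.13, adjusted p = 0.105), except without the second acidosis sample (-0.42, adjusted p = 0.00198) and by total count only (-0.84). RANBP2 shares near-identical sequence with the RGPD genes, whose summed counts came to 47.1% and 47.5% of those of RANBP2 in control, 52.0% and 52.2% with SRPIN340 and 74.1%, 80.1% and 85.7% in acidosis, so how its reads were divided is uncertain.

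NUP98, an FG nucleoporin found on both faces, and NUP153, the basket protein that anchors TPR, were at similar levels in all groups. NUP98 had 144 and 151 CPM in control, 132 and 140.3 CPM with SRPIN340, and 144, 132 and 143 CPM in acidosis (-0.08, 95% interval -0.24 to 0.09, adjusted p = 0.367). NUP153 had 263 and 252 CPM in control, 250.1 and 261 CPM with SRPIN340, and 239, 283 and 236 CPM in acidosis (-0.03, 95% interval -0.22 to 0.17, adjusted p = 0.798). TPR, the coiled-coil protein that forms the basket filaments, stood apart from them: it had 416 and 423 CPM in control, 398 and 409 CPM with SRPIN340, and 231, 271 and 230.4 CPM in acidosis. All acidosis samples were below all others (-0.78 ± 0.08, adjusted p = 1.38e-05). By total count only, NUP98 and NUP153 passed as lower (-0.65 and -0.60). The third basket protein, NUP50, was at -0.19 ± 0.10 and passed only without the second acidosis sample (-0.27, adjusted p = 0.04) or by total count only (-0.76).

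Among the importin alpha adaptors, KPNA4, KPNA2 and KPNA1 were higher in acidosis with TMM, although KPNA1 was lower by total count only (-0.28). KPNA4 (importin alpha 3) had the highest fold change of all members. It was at 85.0 and 82.0 CPM in control, 78.8 and 80.4 CPM with SRPIN340, and 280.5, 308 and 297 CPM in acidosis, which is 3.53-fold over control (log2 fold change 1.82 ± 0.07, adjusted p = 4.03e-08). The lowest acidosis sample was above every other sample by a wide margin, and the gene was also called by total count only (1.25). KPNA2, an adaptor with high levels in dividing cells, had 704 and 724 CPM in control, 595 and 605 CPM with SRPIN340, and 1175, 1258 and 1225 CPM in acidosis (0.77 ± 0.06, adjusted p = 1.41e-06). By total count only the KPNA2 value was 0.20 and still passed. All 3 groups were separate, with acidosis highest and SRPIN340 lowest, but the decrease with SRPIN340 did not pass the test (adjusted p = 0.0628). KPNA3, the closest relative of KPNA4, had 92.3 and 78.7 CPM in control, 83.2 and 102 CPM with SRPIN340, and 77.0, 81.2 and 76.5 CPM in acidosis, with overlapping groups (-0.13 ± 0.11, adjusted p = 0.317). KPNA5 and KPNA6 were at 0.05 and -0.01 and did not pass, and KPNA1 was at 0.29 ± 0.10 (adjusted p = 0.021), which did not pass without either control sample or without the second acidosis sample (adjusted p = 0.134, 0.0502 and 0.0526).

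The import receptors of the importin beta family spread over 3.41 log2 units in acidosis. With TMM, 4 of 11 were higher and 4 lower, beside 32.5% and 34.2% of all tested genes. By total count only, 3 were higher and 7 lower, beside 16.2% and 55%. KPNB1 (importin beta), the partner of importin alpha, did not differ beyond its spread: it had 1048 and 1033 CPM in control and 971, 943 and 1048 CPM in acidosis (-0.08, 95% interval -0.21 to 0.06, adjusted p = 0.279), but passed as lower by total count only (-0.65). The transportins went different ways. TNPO1, which carries RNA-binding proteins of the hnRNP family with a proline-tyrosine signal, had 225 and 213 CPM in control, 202 and 201 CPM with SRPIN340, and 518, 573 and 592 CPM in acidosis. Its relative TNPO2 had 101 and 101 CPM in control, 99.1 and 81.4 CPM with SRPIN340, and 344, 307 and 333 CPM in acidosis. All acidosis samples of these genes were far above the rest, by 1.36 ± 0.07 and 1.70 ± 0.10 on the log2 scale (adjusted p = 2.52e-07 and 3.18e-07), and both stayed higher by total count only (0.78 and 1.12). TNPO3, the importer of SR-rich splicing factors, had 129 and 134 CPM in control, 117 and 116 CPM with SRPIN340, and 80.2, 77.9 and 77.8 CPM in acidosis. All acidosis samples of TNPO3 were below the others. Its SRPIN340 samples were below control, as they also were in TNPO1 and TNPO2, and groups of 2 samples can separate without a difference. The decrease in acidosis was -0.74 ± 0.07 (adjusted p = 7.89e-06), while that with SRPIN340 did not pass the test (-0.18 ± 0.07, adjusted p = 0.257).

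Of the IPO genes, IPO7 and IPO5 rose while IPO8, IPO9 and IPO13 fell. IPO7, an importer of ribosomal proteins and histones, had 212 and 183 CPM in control, 231 and 246 CPM with SRPIN340, and 411, 465 and 351 CPM in acidosis (1.05 ± 0.12, adjusted p = 2.89e-05, and 0.48 by total count only). IPO8, its closest relative in sequence, had 95.2 and 90.7 CPM in control, 87.0 and 85.4 CPM with SRPIN340, and 29.8, 25.1 and 30.0 CPM in acidosis (-1.71 ± 0.10, adjusted p = 3.16e-07). These related receptors thus moved in opposite directions, each with acidosis samples outside the range of the others. IPO9, an importer of histones and actin, had 242 and 257 CPM in control, 214 and 244 CPM with SRPIN340, and 67.6, 105 and 93.7 CPM in acidosis (-1.50 ± 0.15, adjusted p = 1.41e-05). IPO13, which both imports and exports cargo, had 36.7 and 47.6 CPM in control, 35.2 and 35.6 CPM with SRPIN340, and 17.0, 17.4 and 9.72 CPM in acidosis (-1.51 ± 0.21, adjusted p = 0.00016). IPO5 was at 0.61 ± 0.06 (adjusted p = 1.46e-05) but at 0.04 by total count only (adjusted p = 0.618). IPO11 (-0.26 ± 0.14) and IPO4 (0.13 ± 0.10) did not pass, although IPO11 passed as lower without the third acidosis sample (-0.39, adjusted p = 0.0189) and by total count only (-0.83).

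Of the exportins, XPO1 fell and XPO7 rose. XPO1 (CRM1), the receptor for leucine-rich export signals, had 423 and 379 CPM in control, 379 and 412 CPM with SRPIN340, and 276, 319 and 318 CPM in acidosis (-0.40 ± 0.08, adjusted p = 0.00192). XPO7, which carries a broad range of proteins, had 133 and 131 CPM in control, 131 and 136 CPM with SRPIN340, and 273, 289.6 and 267 CPM in acidosis, a log2 fold change of 1.06 ± 0.07 (adjusted p = 6.62e-07), and 0.49 by total count only. Acidosis did not overlap the other groups in either gene. XPO4, which exports a translation factor, XPO5, the exporter of microRNA precursors, and XPO6, the exporter of actin, were higher with TMM (0.27 ± 0.09, 0.41 ± 0.07 and 0.40 ± 0.11) and below 0 by total count only (-0.30, -0.16 and -0.18). The XPO4 value did not pass when any 1 of 4 libraries was left out (adjusted p = 0.0505 to 0.198, the highest without the second control sample), and XPO6 did not pass without the second control sample (0.35, adjusted p = 0.0756).

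**Figure D3:**
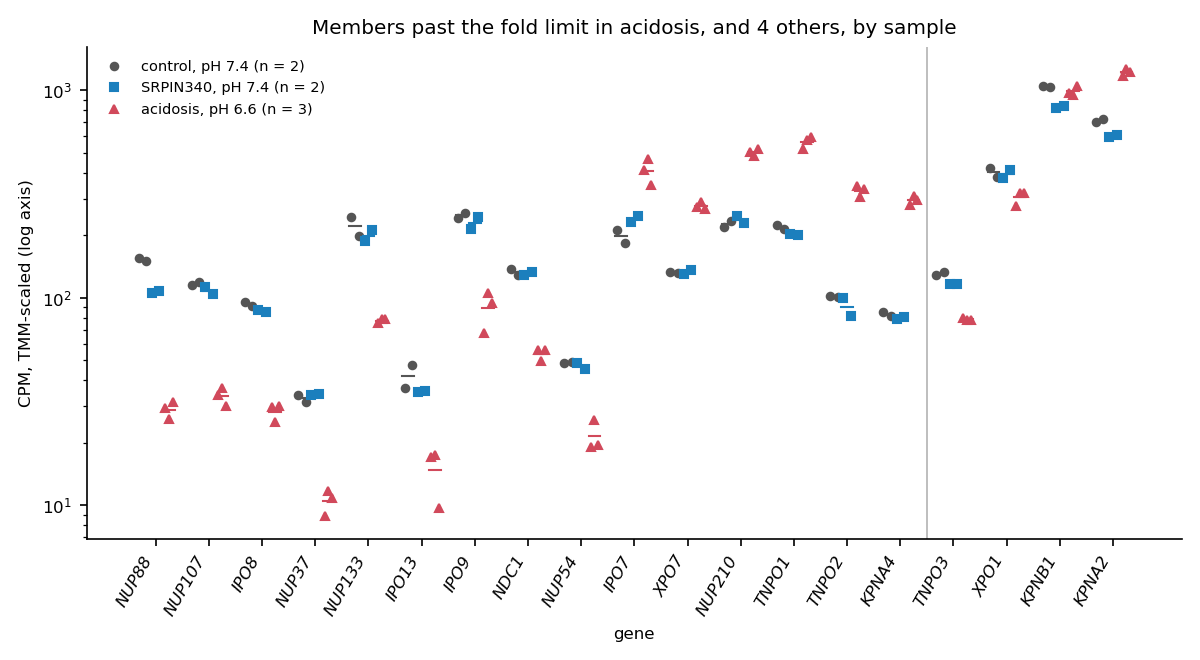
CPM on a log axis of the 15 members called in acidosis, ordered by fold change, and of TNPO3, XPO1, KPNB1 and KPNA2 (right of the grey line). Each point is a sample and each short bar a group mean. For the 15 called members the acidosis samples lie outside the range of the control and SRPIN340 samples, below it in 9 genes and above it in 6. These genes were chosen by their change in the same samples, so their separation from control largely follows from that choice.

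Ratios of counts within a library do not depend on how libraries are scaled. Pairs of related members were formed after their values had been seen, so the ratios are a description without a test. TNPO1 had 1.74 and 1.60 times the counts of TNPO3 in control, 1.73 and 1.73 times with SRPIN340 and 6.46, 7.35 and 7.60 times in acidosis. TNPO2 to TNPO3 went from 0.786 and 0.756 in control to 4.28, 3.93 and 4.28 in acidosis, and NUP160 to NUP107, within the Y complex, from 0.670 and 0.666 to 2.98, 3.53 and 3.26. In both of the latter pairs the SRPIN340 ratios (0.701 and 0.850, and 0.636 and 0.738) lay on either side of the control ratios. NUP62 to NUP54, within the channel complex, had a mean ratio of 2.65 in control and 9.82 in acidosis, KPNA4 to KPNA3 one of 0.981 and 3.77, and NUP210 to NDC1 one of 1.70 and 9.35. NUP214 to NUP88 had 0.751 and 0.776 in control, 0.961 and 0.975 with SRPIN340 and 2.43, 2.55 and 1.89 in acidosis. Over the 7 pairs the mean ratio differed between control and acidosis by 3.00-fold to 5.50-fold.

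**Figure D4:**
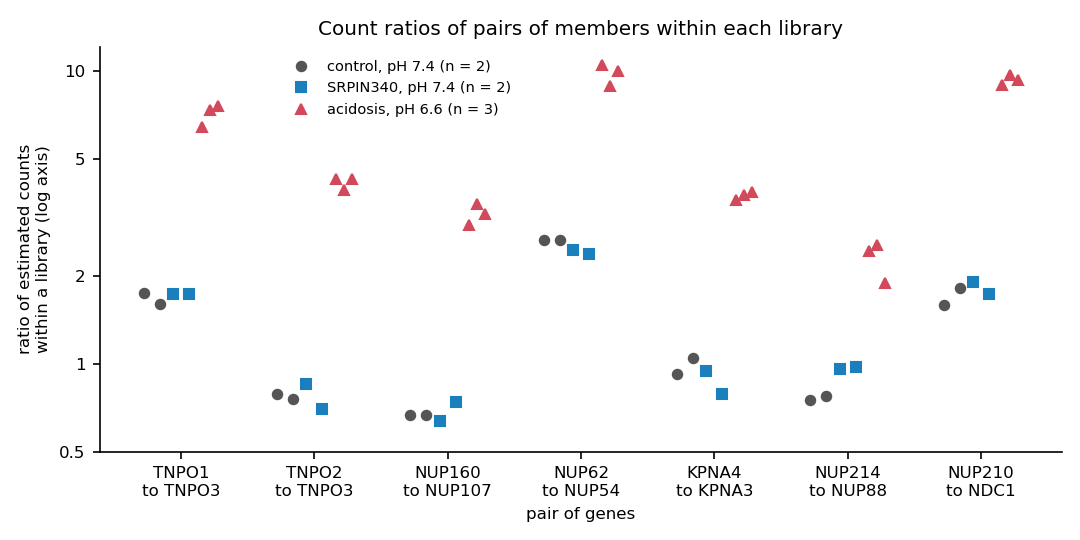
Ratio of estimated counts of 7 pairs of members within each library, on a log axis. In each pair the 3 acidosis samples lie above the control and SRPIN340 samples, for example at 6.46 to 7.60 for TNPO1 to TNPO3 where control is at 1.60 and 1.74.

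The share of each class in the summed counts of all members is likewise free of scaling, though it weights long and abundant transcripts most. The outer ring members, without SEC13, held 8.46% and 8.56% in control, 8.62% and 8.86% with SRPIN340 and 4.07% to 4.44% in acidosis. The cytoplasmic face went from 8.12% and 8.59% in control to 4.16% to 5.09% in acidosis, and the basket from 10.2% and 10.3% to 6.50% to 7.59%. Of the basket genes, TPR alone had passed as lower with TMM. Importin alpha took the opposite course, with 14.6% and 14.9% in control, 14.6% and 14.8% with SRPIN340 and 21.0% to 21.4% in acidosis. KPNA2 has the most counts in that class, and KPNA3, KPNA5 and KPNA6 had not passed. A share also falls when another class rises, so these shares do not show that whole classes moved. Importin beta family receptors had 29.6% and 29.7% in control and 32.0% to 33.6% in acidosis, while the exportin share of 10.8% to 11.1% in acidosis, beside 10.3% and 10.6% in control, lay within the 10.8% to 11.4% found with SRPIN340. Per kilobase of canonical transcript, KPNA2 (361 CPM per kb in control and 617 in acidosis) and KPNB1 (172 and 163) had the highest levels of the 49 members in both groups. NUP88 went from the 9th to the 42nd place of the 49 in this order of levels, KPNA4 from the 47th to the 14th and TNPO2 from the 33rd to the 7th.

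**Figure D5:**
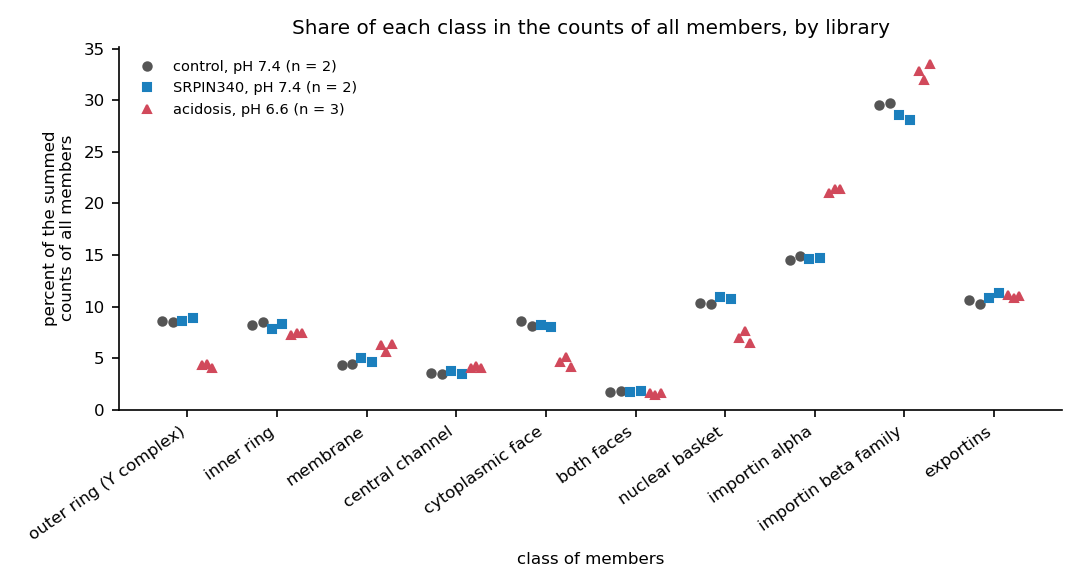
Share of each class in the summed estimated counts of all members, in percent, with 1 point per library. In acidosis the outer ring, cytoplasmic face and basket have lower shares, and importin alpha a higher share (21.0% to 21.4%, beside 14.6% and 14.9% in control).

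SRPIN340 against control asks what inhibition of SR protein kinases does at normal pH. Here NUP88 and KPNB1 were lower, 2 of 49 members (4.08%, beside 1.53% of all tested genes). By edgeR 0 members were higher (beside 0.767% of all tested genes), although 2 were at an unadjusted p under 0.05 (KPNA5 and NUP43) and DESeq2 passed 1 of them, KPNA5. NUP88 fell to 0.695 of control (105 and 107 CPM with SRPIN340 beside 156 and 149.9 CPM, log2 fold change -0.52 ± 0.09, adjusted p = 0.0318). KPNB1 had 823 and 834 CPM beside 1048 and 1033 CPM (-0.33 ± 0.06, adjusted p = 0.0376). In both genes the groups did not overlap, but neither decrease passed when any 1 of the 4 samples compared was left out (adjusted p from 0.123 to 0.267 for NUP88 and from 0.142 to 0.269 for KPNB1), and KPNB1 did not pass without the first acidosis sample (adjusted p = 0.0602). IPO4, an importer of histones, was at -0.48 ± 0.11 (adjusted p = 0.0537) and KPNA2 at -0.25 ± 0.06 (adjusted p = 0.0628), and both passed as lower by DESeq2. IPO4 also passed when genes under a mean of 6 CPM were left out, with only the 2 groups compared and without the second acidosis sample (adjusted p = 0.0423, 0.0484 and 0.046). IPO4 shares 3375 of its 4912 exonic bases with a readthrough gene on the same strand, so its counts are uncertain. KPNA5 was at 0.43 ± 0.14 (adjusted p = 0.142).

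TNPO3, whose cargo the inhibited kinases phosphorylate, was at -0.18 with SRPIN340 (95% interval -0.34 to -0.01, adjusted p = 0.257). TNPO1 and TNPO2 were at -0.12 (95% interval -0.29 to 0.05) and -0.16 (95% interval -0.39 to 0.06). The median absolute log2 fold change of members was 0.11, beside 0.18 over all tested genes. In acidosis against SRPIN340, the direct test between the treatments, 20 of 49 members were higher (40.8%, beside 32.8% of all tested genes) and 21 were lower (42.9%, beside 35%). By total count only these were 7 (14.3%, beside 15.8%) and 33 (67.3%, beside 56.9%). NUP88 was lower in acidosis than with SRPIN340 by -1.88 ± 0.09 (adjusted p = 1.31e-07) and TNPO3 by -0.56 ± 0.07 (adjusted p = 5.07e-05). KPNB1 was higher in acidosis than with SRPIN340 with TMM (0.25 ± 0.06, adjusted p = 0.00368) and lower by total count only (-0.36). IPO4 was higher by 0.61 ± 0.10 with TMM (adjusted p = 0.000417) and at -0.00065 by total count only. This comparison shares its samples with the other comparisons and is not independent of them.

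Other genes of the pathway were taken from lists of known components, and their counts stand beside the shares given above for all tested genes, 32.5% higher and 34.2% lower in acidosis with TMM and 16.2% and 55% by total count only. Of 6 nucleoporins that the symbols leave out, 4 were higher in acidosis (POM121, POM121C, SEC13 and RAE1, of which POM121 was below 0 by total count only) and 1 was lower, the mRNA export factor GLE1 (72.7 and 71.3 CPM in control, 34.8, 35.3 and 38.3 CPM in acidosis). POM121 and POM121C are near-identical copies, so how their reads were divided is uncertain. By total count only, 1 was higher and 3 were lower. These 5 were named after their values had been seen. SEC13 is a Y complex subunit and RAE1 the partner of NUP98. Of 8 further transport receptors, 4 were higher and 2 lower (by total count only, 2 and 4). NXT1, the partner of the mRNA exporter NXF1, had 9.62 and 12.3 CPM in control and 44.2, 40.6 and 44.7 CPM in acidosis (1.98 ± 0.14), and RANBP6, a relative of IPO5, was at 1.81 ± 0.10. CSE1L, the exportin that returns importin alpha to the cytoplasm, had 289 and 268 CPM in control and 98.5, 107 and 95.3 CPM in acidosis (-1.47 ± 0.07, adjusted p = 1.4e-07).

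In the Ran cycle 5 of 9 genes were higher in acidosis and 3 lower (by total count only, 2 and 5), with a call for the Ran-binding protein RANGRF (1.38 ± 0.14). Of 23 mRNA export genes 13 were higher and 6 lower (by total count only, 4 and 12). Among its calls were NCBP1, the large subunit of the nuclear cap-binding complex (-1.60 ± 0.14), MCM3AP, the scaffold of the TREX-2 complex (-1.03 ± 0.10), and SEM1 and THOC6 (both 1.23, ± 0.08 and ± 0.15). Of 18 lamina and envelope genes 8 were higher and 4 lower (by total count only, 4 and 11). LMNB1 (lamin B1) had 228 and 212 CPM in control, 172 and 158 CPM with SRPIN340, and 42.8, 44.6 and 44.7 CPM in acidosis (-2.32 ± 0.07, adjusted p = 1.48e-08), and TMPO, a lamin-binding membrane protein, was at -1.62 ± 0.07. In contrast, EMD (emerin) and BANF1, which binds it and DNA, were at 1.60 ± 0.09 and 1.33 ± 0.08, and their values stayed above 0 by total count only (1.02 and 0.76). With SRPIN340, RANBP1 and RANGAP1 of the Ran cycle (-0.46 ± 0.06 and -0.32 ± 0.07), ALYREF and DDX39B of mRNA export (-0.51 ± 0.08 and -0.51 ± 0.10) and LMNB1 (-0.42 ± 0.08) were lower, with adjusted p from 0.00794 to 0.0431. None of the 5 passed without either SRPIN340 sample, and RANBP1 alone passed without either control sample (adjusted p = 0.0479 and 0.0435). DDX39B also did not pass without the third acidosis sample (adjusted p = 0.0537), nor RANGAP1 without the first or the third (adjusted p = 0.0673 and 0.0561) or by total count only (adjusted p = 0.061).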

How the data were processed

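Poly(A) RNA from 7 samples of HEK-293 cells (control 2, acidosis 3, SRPIN340 2) was sequenced. The authors trimmed reads with Trimmomatic 0.39 and Trim Galore 0.6.6, ran Salmon 1.5.1 on Gencode GRCh38.p13 transcripts and used tximport to obtain the deposited estimated counts per gene, which are not normalized between samples. The tximport option is not given in the sources used here. The study's methods mention 3 replicates inside every biological repeat, whereas each sample has a single column. Where repeats shared a culture, p-values measure only technical spread.

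Genes were named by Ensembl identifier from GENCODE release 44, in which 19977 of 19978 matched. Counts were rounded and tested in R 4.3.3 with edgeR 4.0.16 (quasi-likelihood test, TMM, filterByExpr) in one fit of 7 samples, with Benjamini-Hochberg adjustment over 14863 genes. A member passed at an adjusted p under 0.05 and was called if its log2 fold change also exceeded 1 in size. The standard error was the log2 fold change divided by the root of the test statistic. The fits were tested on simulated counts with known changes in few genes. This does not cover the wide changes seen in acidosis or the choice of scaling. Alternatives were DESeq2 1.42.0, RLE or total-count scaling, other filters (none, or a mean of 6 CPM), only the groups compared, a replicate block and each sample left out. Promoter sequences are from RefSeq. Python 3.11.15 and matplotlib 3.10.9 were used for summaries and figures.

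Values per sample are given for members called in acidosis or passing with SRPIN340, for TNPO1, TNPO3, KPNA2, KPNB1, XPO1, NUP98, NUP153 and TPR, and for the highest and lowest member of each class. In each list of other genes, up to 4 called genes are named. The members, lists, classes and motifs were chosen with earlier results of these data known.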

Additional observations from a re-analysis of the deposited data

How the results depend on the processing

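By total count only, the members in acidosis against control numbered 7 higher and 34 lower, with 2 and 18 calls and a median of -0.65, beside 16.2% and 55% of all tested genes with 5.48% and 35% called. In acidosis against SRPIN340 they numbered 7 higher and 33 lower, beside 15.8% and 56.9%. Under this scaling 12 values reversed: IPO4 (-0.44), KPNA1 (-0.28), KPNA5 (-0.52), NUP58 (-0.27), NUP62CL (-0.15), NUP93 (-0.10), NUP155 (-0.49), NUP160 (-0.089), NUP188 (-0.19), XPO4 (-0.30), XPO5 (-0.16) and XPO6 (-0.18). IPO5 and NUP62 no longer passed. KPNA6, near 0, reversed by DESeq2 (0.0047) and RLE (0.014). A change of scaling moves every gene of a library by the same factor.

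With SRPIN340, 1 member (KPNA5) was higher by DESeq2 and 1 with only the groups compared (KPNA5), and 4 were lower by DESeq2. IPO4 also passed as lower with only the groups compared and with the 6 CPM filter. Leaving out each sample gave 0 to 1 higher and 0 to 3 lower. In acidosis, leaving out each sample moved NUP153 between -0.11 and 0.023 and KPNA5 between -0.086 and 0.14. KPNA1 and XPO4 also did not pass with only the groups compared, and XPO4 did not pass without a filter. The cause was not tested.

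Same-numbered samples did not deviate together over all tested genes (correlations of -0.115 to 0.063), and the main test did not pair them. With 2 or 3 samples in a group, these correlations cannot exclude a shared culture or batch. With the replicate block 0 members were lower with SRPIN340 (NUP88 and KPNB1 had adjusted p of 0.084 and 0.105), NUP153 in acidosis was at 0.017, IPO11 passed (-0.39, adjusted p = 0.0332), and no other of the 49 values in acidosis changed its call. Of the 5 listed genes lower with SRPIN340, none passed with the block (adjusted p from 0.0607 to 0.128). Calls in acidosis numbered 6 higher and 9 lower under DESeq2, RLE, both filters, only the groups compared and the block, and 5 to 6 higher and 9 lower with a sample left out. Acidosis libraries are smaller, so members with few counts, such as IPO13 at 113 to 287 counts there, are measured less precisely.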
